A study of Mus musculus with 8 samples.

Results

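The 9 genes described here are transcription factors that mark the lineage of forebrain GABAergic interneurons: Dlx1, Dlx2, Dlx5, Dlx6, Lhx6, Sox6, Satb1, Prox1 and Nr2f2. They were chosen by symbol from a table of 26229 genes, and each symbol matched 1 row. All 9 were among the 18085 genes that received an adjusted p. They fall into pan-GABAergic factors (the 4 Dlx genes), factors of the medial ganglionic eminence (Lhx6, Sox6 and Satb1) and factors of the caudal ganglionic eminence (Prox1 and Nr2f2). The study set 4 libraries of H2BE-KO/mCherry-KI neurons (KO) against 4 libraries of WT neurons. In the KO an mCherry knock-in disrupts the gene of the histone variant H2BE, per the labels, which name neither strain nor sex nor the part of the gene replaced. Both genotypes were mouse primary cortical neurons isolated at E16.5, before birth, and sequenced as polyadenylated RNA after 12 days in culture. The labels call the 4 libraries of a genotype biological replicates without naming the embryos or cultures, so the errors measure the spread between libraries.

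GABAergic interneurons of the cortex are born outside it, in the ganglionic eminences of the ventral forebrain, and migrate into the cortical plate before birth. The Dlx homeobox genes are expressed across these eminences and promote the GABAergic fate, also in cells that become striatal projection neurons. Lhx6, a LIM homeodomain factor, is switched on in cells leaving the medial eminence, the source of somatostatin and parvalbumin interneurons, and lies upstream of Sox6 and Satb1 in that lineage. Prox1, a homeodomain factor, and Nr2f2, the orphan nuclear receptor also called COUP-TFII, mark cells of the caudal eminence, the source of VIP and reelin-expressing interneurons. Some of these factors are made elsewhere too: Satb1 in cortical projection neurons, Prox1 in dentate granule neurons, and Nr2f2 in vascular cells.

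All fold changes, standard errors (SE) and p-values below come from the authors' deposited table, a DESeq2 Wald test over all genes with Benjamini-Hochberg adjustment, and no value per library was used. They are given as KO over WT. The header names no direction, so the sign was read from the targeted gene H2bc21, whose KO level should be the lower one. On the log2 scale it then stood at -3.45 (SE 0.19, adjusted p = 4.49e-68). Were that reading wrong, all rises and falls below would be exchanged. As for the tissue label, the neuronal genes Map2 and Tubb3 had mean normalized counts of 90482 and 49136 over all libraries. Markers of other cells were present as well. The mean counts of 7 astrocyte markers summed to 15136, mostly Slc1a2 at 13490. Those of 12 endothelial and mural markers summed to 1934, mostly Rgs5 at 1318, with Cldn5 at 3.00. Those of 8 oligodendrocyte lineage markers summed to 1721, mostly Mbp at 1169, with Sox10 at 0.29. Those of 6 microglia markers summed to 61.0. A sum carried mostly by 1 gene does not show how many such cells were present.

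Among the 9 factors, 3 fell in KO neurons and none rose. Lhx6, Dlx6 and Sox6 passed an adjusted p of 0.05, all lower in KO, and the other 6 did not pass. Of all tested genes in the file 10.9% were called lower in KO and 11% higher, 21.8% in all. At a mean count of 200 or more, a minimum set after the members' counts were seen and reached by all 9, these shares were 14.4% lower and 14.7% higher. At an unadjusted p under 0.05, 4 factors were lower and 1, Satb1, was higher. The share of all tested genes at that unadjusted p was not computed. It is no lower than the 21.8% called, since the largest unadjusted p of a called gene was 0.0109. Counts at an unadjusted p, here and for the lists below, are therefore given without their background. The median log2 fold change of the 9 was -0.56, against -0.02 for all tested genes. By estimate, all 4 Dlx genes lay below 0 with a median of -0.68, and the 3 medial factors had a median of -0.72 with Satb1 above 0. Both caudal factors had estimates above 0 with intervals that include 0. The interval of Prox1 overlaps those of all 8 other members. Since the members were chosen with earlier results of these data known, these counts are a description and no test was run over them.

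**Figure D1:**
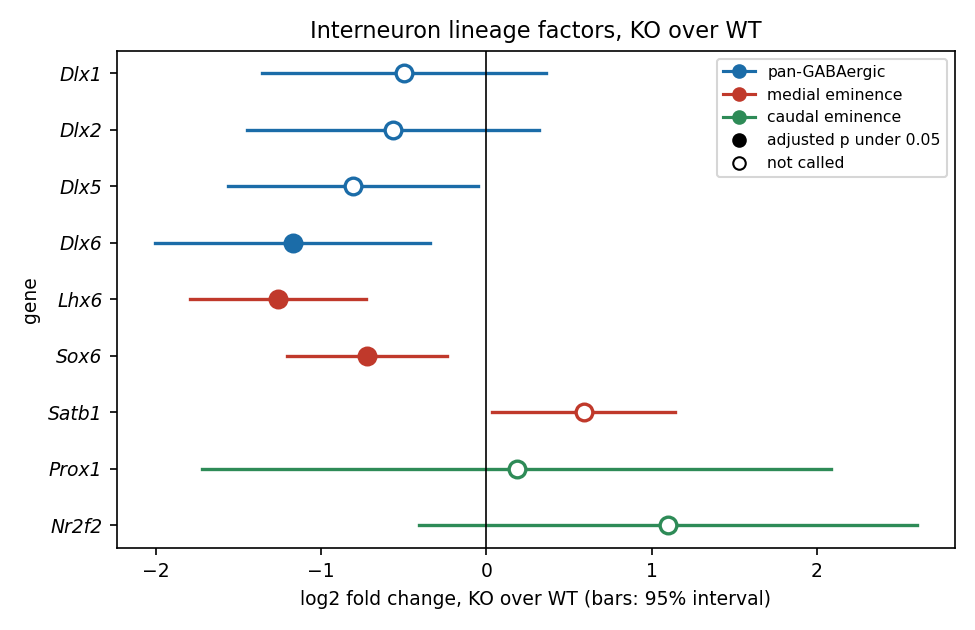
Log2 fold change of each factor, KO over WT, with its 95% interval, coloured by class. Filled points passed an adjusted p of 0.05. Lhx6 (-1.26), Dlx6 (-1.17) and Sox6 (-0.72) lie wholly below 0, and the intervals of Prox1 and Nr2f2 are the widest of the 9.

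The 4 Dlx genes are arranged as 2 pairs of convergently transcribed neighbours. In GRCm38, Dlx1 occupies chromosome 2, plus strand, positions 71528113 to 71533981, and Dlx2 occupies positions 71543408 to 71546754 on the minus strand, with 9426 bases between them. Dlx6 occupies chromosome 6, plus strand, positions 6863334 to 6868568, and Dlx5 occupies positions 6877805 to 6882085 on the minus strand, with 9236 bases between them. The bases between each pair are known to hold forebrain enhancers that both neighbours share. The longest exact run shared by annotated transcripts of any pair among the 4 genes was 23 bases, between Dlx2 and Dlx6.

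Dlx6 fell to 44.4% of its WT level, or -1.17 on the log2 scale (SE 0.42, 95% interval -2.002 to -0.34, adjusted p = 0.0312). Its neighbour Dlx5, which acts downstream of Dlx1 and Dlx2 in the eminences, had -0.80 (SE 0.39, interval -1.56 to -0.05, unadjusted p = 0.0368, adjusted p = 0.122). Dlx5 therefore missed the threshold with an interval that stays below 0. The first-acting pair gave smaller values. Dlx1 stood at -0.50 on the log2 scale (SE 0.44, interval -1.36 to 0.36, adjusted p = 0.458). Dlx2 had -0.56 (SE 0.45, interval -1.45 to 0.32, adjusted p = 0.399). All 6 pairs among the 4 Dlx intervals overlap, so the values do not separate the neighbours or the clusters from each other.

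Antisense genes at both clusters gave values near those of their partners. Dlx6os1, the long noncoding RNA also known as Evf2, runs along chromosome 6, minus strand, positions 6820189 to 6871592, and across the whole of Dlx6 without sharing an annotated exon base with it. It fell by 1.20 on the log2 scale (SE 0.46, adjusted p = 0.0467), and its mean normalized count was 4016. Dlx1as, which shares 335 exon bases with Dlx1 on the opposite strand, or 6.21% of the Dlx1 exons, had -0.54 (SE 0.46, adjusted p = 0.438) with 256 mean normalized counts. The libraries were made with a stranded kit per the labels, but whether counting used the strand was not stated in them. Without it, reads from overlapping exons of the 2 strands cannot be told apart. The other antisense partners tested had mean counts of at most 14.8 and none passed, Gm6934 at the Satb1 start being the most abundant of them.

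Within the medial class Lhx6 and Sox6 fell and Satb1 did not follow them. Lhx6 (chromosome 2, 36081953 to 36105408, minus strand) fell to 41.8% of its WT level, or -1.26 on the log2 scale (SE 0.27, interval -1.79 to -0.73, adjusted p = 7.93e-05). This was the smallest adjusted p of the 9. Sox6 (chromosome 7, 115470872 to 116038796, minus strand), an HMG-box factor needed for the positioning and maturation of medial interneurons, fell to 60.7% of WT, or -0.72 on the log2 scale (SE 0.25, interval -1.21 to -0.23, adjusted p = 0.0215). Satb1 (chromosome 17, 51736187 to 51833290, minus strand), a chromatin organizer that promotes somatostatin interneuron maturation, had 0.59 on the log2 scale (SE 0.28, interval 0.04 to 1.14, unadjusted p = 0.0364, adjusted p = 0.121). It did not pass, and its interval overlapped neither that of Lhx6 nor that of Sox6. Of the 36 pairs of members, 5 had intervals that do not overlap, and 4 of these set Satb1 against Dlx5, Dlx6, Lhx6 or Sox6. The remaining one set Lhx6 against Nr2f2. How often intervals fail to overlap among pairs of all tested genes was not computed, so the count of 5 describes these 9 genes only. The covariance between genes was not available, so the differences between members were not tested.

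Upstream sequences of the medial factors are shown because the 2 that fell and the 1 that did not can be set side by side. They are the 250 bases before the RefSeq start nearest the GENCODE gene start (GRCm38.p6), all on the minus strand: chr2:36105409-36105658 for Lhx6, chr7:116038745-116038994 for Sox6 and chr17:51833291-51833540 for Satb1. Capitals mark TAAT on either strand, the core bound by homeodomain proteins such as the Dlx factors.
Lhx6: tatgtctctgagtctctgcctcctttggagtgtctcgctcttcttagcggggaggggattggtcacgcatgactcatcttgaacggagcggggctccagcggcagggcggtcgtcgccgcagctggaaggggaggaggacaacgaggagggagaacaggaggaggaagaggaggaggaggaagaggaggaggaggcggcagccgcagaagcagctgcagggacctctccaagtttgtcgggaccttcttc
Sox6: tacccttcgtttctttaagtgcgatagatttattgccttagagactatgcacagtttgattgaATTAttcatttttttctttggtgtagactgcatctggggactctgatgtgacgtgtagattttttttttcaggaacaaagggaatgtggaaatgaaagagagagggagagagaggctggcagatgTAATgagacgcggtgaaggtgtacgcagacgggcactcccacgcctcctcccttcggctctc
Satb1: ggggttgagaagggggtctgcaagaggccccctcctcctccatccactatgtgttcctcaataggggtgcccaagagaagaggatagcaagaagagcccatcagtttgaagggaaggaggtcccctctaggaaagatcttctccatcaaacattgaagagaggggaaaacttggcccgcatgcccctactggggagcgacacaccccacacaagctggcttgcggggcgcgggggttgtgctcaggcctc
Sox6 holds TAAT 2 times and the other 2 hold none in this window, whereas 54.9% of the 32851 RefSeq promoter windows of the same length hold it. The longer TAATTA, which contains TAAT on both strands, is in none of the 3 and in 4.84% of all windows. Lhx6 holds 14 CpG dinucleotides, Sox6 9 and Satb1 5, against a median of 6 over all windows. Sox6 had 6 RefSeq starts, Satb1 5 and Lhx6 3, and which of them these neurons use is not known here. Whether these contents go with the calls was not tested. A match is a description of the letters and not a binding site.

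The caudal factors did not pass, and their errors were wide. Nr2f2 (chromosome 7, 70351944 to 70366735, minus strand) had 1.10 on the log2 scale (SE 0.77, interval -0.41 to 2.60, adjusted p = 0.326), which is 2.14-fold in KO over WT. Prox1 (chromosome 1, 190118035 to 190170714, minus strand) had 0.18 (SE 0.97, interval -1.72 to 2.09, adjusted p = 0.920). No caudal factor had an unadjusted p under 0.05 either. The smallest Wald statistic called in the table was 2.55 in size, so at these errors Prox1 would have needed a 5.54-fold difference and Nr2f2 a 3.88-fold difference to be called. A fall of the size seen in Lhx6, 1.26 on the log2 scale, was below the callable size of both. It lies within the Prox1 interval and below the Nr2f2 interval.

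The upstream window of Nr2f2, chr7:70366747-70366996 on the minus strand, is shown for contrast because it holds 1 CpG, fewer than the windows of the other 6 matched members, which hold between 5 and 24. Capitals again mark TAAT, which it holds 2 times.
Nr2f2: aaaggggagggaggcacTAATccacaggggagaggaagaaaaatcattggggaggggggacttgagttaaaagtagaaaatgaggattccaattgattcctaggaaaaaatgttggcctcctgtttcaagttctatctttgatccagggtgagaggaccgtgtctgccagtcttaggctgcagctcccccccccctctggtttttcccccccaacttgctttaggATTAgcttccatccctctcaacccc

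With 4 libraries on each side, the deposited mean and fold change imply the level of each factor in each genotype approximately. Lhx6 had an implied mean normalized count of 2190 in KO and 5243 in WT. Sox6 had 859 in KO and 1416 in WT. Satb1 had 7779 in KO and 5168 in WT. Which genotype is higher restates the sign of the fold change. Satb1, which was not called, is the medial factor with the higher implied KO level, and both others lie lower there. For the Dlx genes the implied counts were 2400 in KO and 3390 in WT for Dlx1, and 231 in KO and 342 in WT for Dlx2. Dlx5 had 323 in KO and 564 in WT, and Dlx6 had 169 in KO and 381 in WT. The implied KO count was the lower one for each of the 4, of which only Dlx6 was called. Prox1 had 231 in KO and 203 in WT, and Nr2f2 had 872 in KO and 408 in WT, and neither was called.

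To compare genes with each other, the counts were divided by annotated exon length. Per kb of exon, Lhx6 had the highest mean normalized count of the 9 at 774, followed by Dlx1 at 537 and Satb1 at 340. Dlx5 (196 per kb), Dlx6 (116 per kb) and Dlx2 (100.3 per kb) formed the middle of the order. Sox6 (76.7 per kb), Nr2f2 (74.2 per kb) and Prox1 (25.8 per kb) were lowest. Exon lengths join all annotated isoforms and ran from 2.26 kb for Dlx5 to 19.0 kb for Satb1, so levels of genes with long alternative exons are understated. On the implied genotype scale Lhx6 had 456 per kb in KO and 1091 per kb in WT. Dlx1 had 445 per kb in KO and 628 per kb in WT, and Satb1 had 409 per kb in KO and 272 per kb in WT. The 3 most abundant factors therefore lay within 409 and 456 per kb in KO and spread from 272 to 1091 per kb in WT. The spread of single libraries around these levels was not available, so neighbours in the order cannot be called different.

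**Figure D2:**
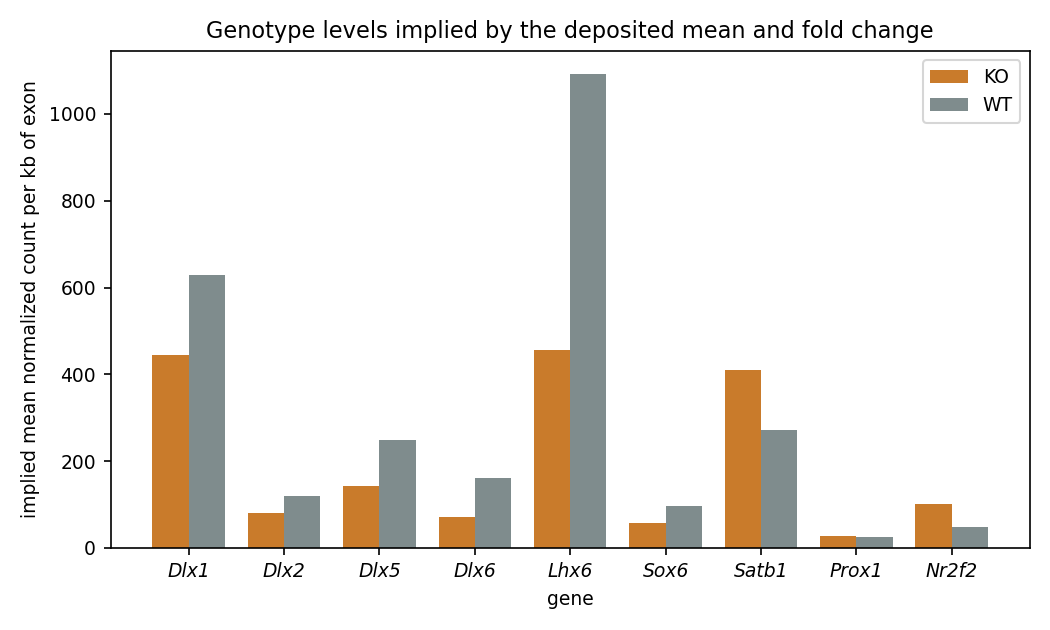
Mean normalized count per kb of annotated exon in KO and WT, as implied by the deposited overall mean and fold change, for each factor. Bars carry no error because no value per library was used. Lhx6 stands at 456 in KO and 1091 in WT, and Satb1 is at 409 in KO and 272 in WT.

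The factors varied more between libraries than most genes of like abundance. The SE carries the spread within genotypes, so each was set against tested genes whose mean count lay within 0.5 log2 units of its own. The SE of 8 of the 9 factors was above that of 95% of such genes. Sox6 was the exception at 89.8%. The SE of Nr2f2 was 4.73 times the median of 1880 genes of like count, and above 99.8% of them. That of Prox1 was 4.24 times the median and above 99.6%. Dlx1 followed at 3.51 times the median, above 99.3%, and the remaining 6 lay between 1.77 and 2.28 times. The median ratio of the 9 factors was 2.19. It was 3.57 for GABA synthesis and transport, 3.38 for the 10 caudal subtype markers, 2.72 for Cajal-Retzius and 2.41 for astrocyte markers. Medial subtype markers had 2.00, other eminence factors 1.90, projection neuron factors 1.76 and striatal markers 1.69. Lower medians were those of oligodendrocyte lineage (1.33), endothelial and mural (1.23), microglia (1.17) and the 6 pan-neuronal markers (1.03). A large SE is therefore not particular to these factors. Which libraries or which genotype carry this spread was not available.

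**Figure D3:**
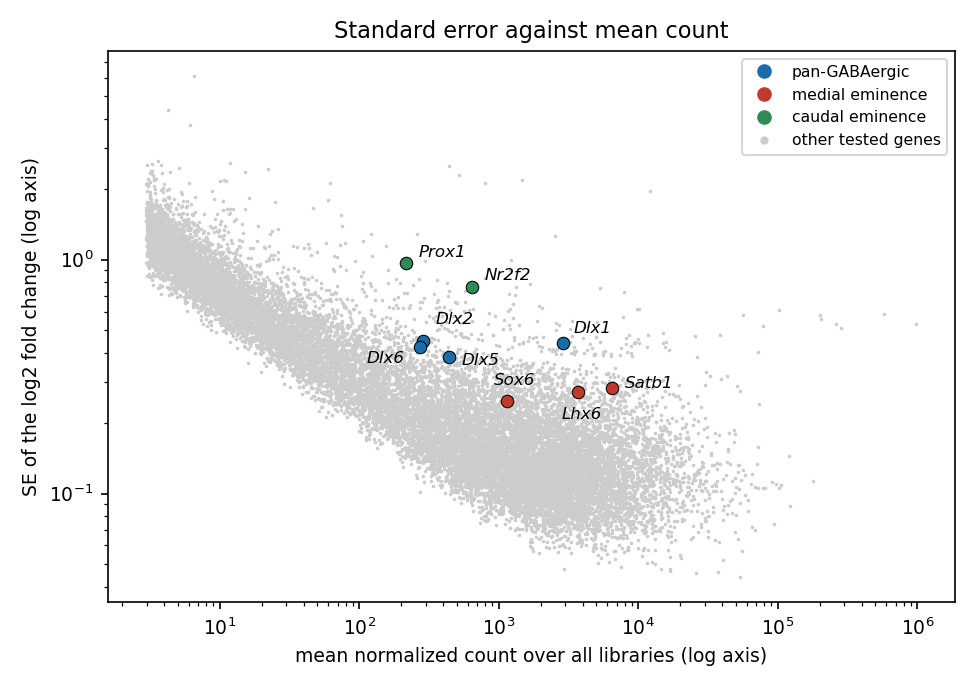
SE of the log2 fold change against mean normalized count, both on log axes, for all tested genes (grey) and the 9 factors (coloured by class). The factors lie along the upper edge of the cloud, with Prox1 (SE 0.97) and Nr2f2 (SE 0.77) farthest above genes of like count.

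Other genes of the interneuron lineage were read from lists, in the same test. Of 14 further ganglionic eminence factors 12 were tested, of which 3 fell, 1 rose and 8 did not pass, with 11 of 12 below 0 and a median log2 fold change of -0.56. Maf, a bZIP factor of medial interneurons, fell (-1.42, SE 0.43, adjusted p = 0.00742). The factor that rose was Npas1, which marks subsets of caudal interneurons, at 1.39 (SE 0.46, adjusted p = 0.0164). Nkx2-1, the factor that specifies the medial eminence upstream of Lhx6, had a mean count of 13.9 over all libraries and did not pass (-2.18, SE 1.22, adjusted p = 0.197).

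Genes of the GABAergic phenotype lay on the side of Lhx6 and Dlx6. All 4 genes of GABA synthesis and transport were below 0 with a median of -1.10, and 2 of them fell and none rose. At an unadjusted p under 0.05, 3 were lower and none higher, the one added being Gad2, the other GABA-synthesizing enzyme gene, at -1.18 (SE 0.49, adjusted p = 0.0643). Gad1, a GABA-synthesizing enzyme, was at -1.02 (SE 0.29, adjusted p = 0.00423). Slc32a1, the vesicular GABA transporter, was at -1.32 (SE 0.40, adjusted p = 0.00675). Markers of medial subtypes gave 5 lower and none higher of 9, with a median of -1.14 and, at an unadjusted p under 0.05, 5 lower and 1 higher. Npy (-2.89, SE 0.41), Nxph1 (-1.14, SE 0.25), Chodl (-2.11, SE 0.48) and Elfn1 (-1.14, SE 0.26) led them, with adjusted p values between 5.05e-10 and 2.18e-04. Sst, the somatostatin gene of the lineage that Satb1 serves, was at -0.28 (SE 0.29, adjusted p = 0.552). Markers of caudal subtypes gave 2 lower and none higher of 10, with a median of 0.26 and 6 of 10 above 0, and 3 lower and none higher at an unadjusted p under 0.05. These 2 calls of 10 are near the 21.8% called among all tested genes. The 2 that fell were Cck (-2.03, SE 0.33, adjusted p = 3.87e-08), which projection neurons also express, and Sncg, at a mean count of 3.92. In bulk RNA, fewer cells of a type and less RNA per cell cannot be told apart.

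Single markers of other cell types, some of which make these factors, were called in both directions. Of all tested genes 21.8% were called, 10.9% lower in KO and 11% higher. The calls in the astrocyte, oligodendrocyte lineage and microglia lists were near that share, so they describe single genes and not the lists. Calls among 16 projection neuron factors were 9 higher and 3 lower (median 0.75), and the smallest adjusted p values belonged to Tbr1 (1.90, SE 0.28), Rorb (1.94, SE 0.34), Neurod2 (1.12, SE 0.21) and Emx1 (1.41, SE 0.27). Of 14 striatal projection neuron markers, relevant to the Dlx factors, 5 rose and 1 fell, and the median was 0.66. Rgs9 (0.98), Foxp1 (1.30) and Meis2 (0.67) were among those that rose. Of 4 Cajal-Retzius markers Lhx1 (2.29), Trp73 (2.16) and Lhx5 (1.97) rose, and Reln, shared with caudal interneurons, did not pass (-0.45, SE 0.48, adjusted p = 0.561). Of 10 endothelial and mural markers tested, relevant to Nr2f2, 4 fell and none rose at an adjusted or an unadjusted p under 0.05. Those that fell were Tagln (-1.42), Acta2 (-1.73) and Pdgfrb (-1.21), mural and smooth muscle genes, and Cldn5, with 3.00 mean normalized counts. Over the 12 listed, implied counts summed to 1453 in KO and 2414 in WT. Most of both sums was Rgs5, at 1111 in KO and 1525 in WT, which did not pass (adjusted p = 0.700). Of 7 oligodendrocyte lineage markers tested, whose precursors express Sox6, Mog rose (0.99, SE 0.17) and none fell. The 1 lower at an unadjusted p under 0.05 was Pdgfra, a precursor marker (-1.35, SE 0.60, adjusted p = 0.0893). By estimate 2 of the 7 lay below 0 and 5 above. Astrocyte markers gave 1 higher, Slc1a2 (0.93, SE 0.24), and none lower of 7, with all 7 above 0 and none lower at an unadjusted p under 0.05. Of 4 microglia markers tested, 1 fell, Csf1r (-3.09, SE 0.66), and none rose, also at an unadjusted p under 0.05. Pan-neuronal markers gave 2 higher, Tubb3 (0.74) and Rbfox3 (0.72), and 1 lower, Syp (-0.25), of 6. The part of these lists in the factors' values was not tested.

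**Figure D4:**
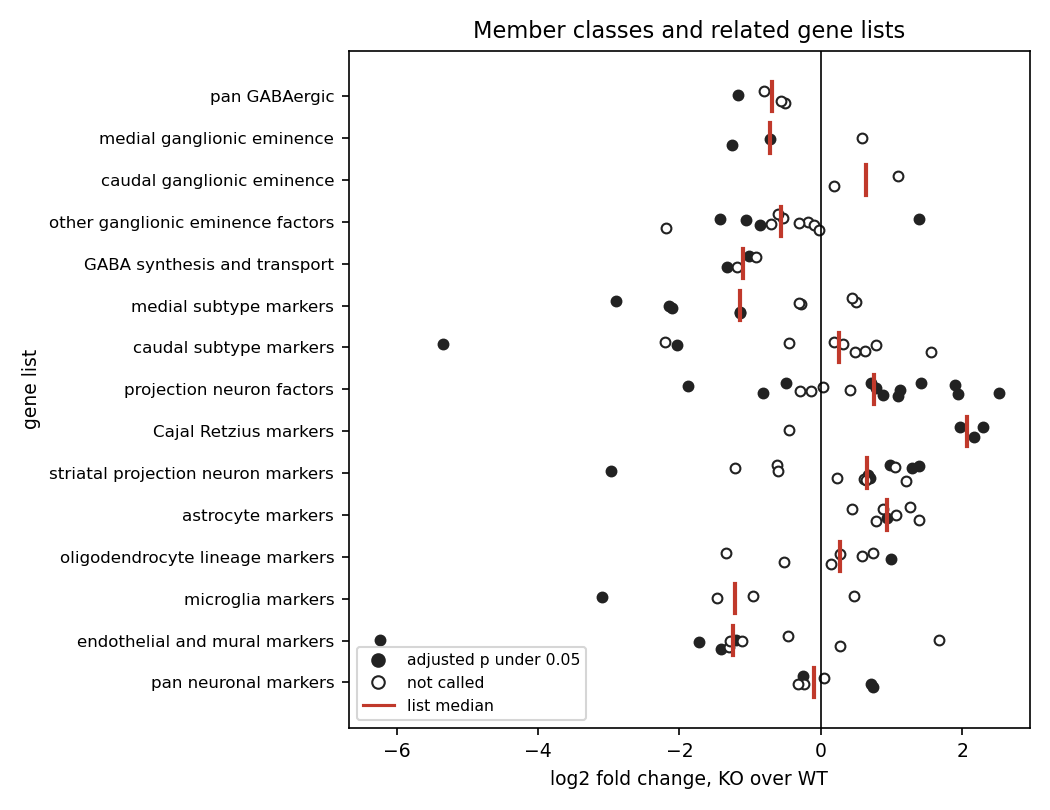
Log2 fold change, KO over WT, of the tested genes of each member class and related list, filled where the adjusted p was under 0.05, with the list median as a red line. The medians of the pan-GABAergic (-0.68) and medial (-0.72) factors lie below 0, as do those of GABA synthesis and transport (-1.10) and medial subtype markers (-1.14). The medians of the caudal factors, neither of them called, and of the projection neuron factors lie above 0.

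The calls rest on the normal distribution of the deposited Wald test. Against the wider t distribution (6 degrees of freedom) none of the 9 factors passed, with an adjusted p of 0.0762 for Lhx6, nor did any with an empirical null, where Lhx6 had 0.414.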

How the data were processed

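Polyadenylated RNA of 4 KO and 4 WT libraries was sequenced, and groups were taken from the labels. The table used is the authors' own comparison of the genotypes. DESeq2 and DESeq, with no versions, and the build mm10 are named, per the submitters' processing notes. The tools of alignment and counting, the strand setting and the annotation were not given in the sources used here. As the deposited signal, each gene has its counts over size factors, averaged across the 8 libraries, per the file headers. The deposited fold change and its SE are on the log2 scale. The deposited score is the Wald statistic, checked to equal their ratio within 2.86e-07. The deposited p-value is two-sided, and the deposited adjusted p was checked to be its Benjamini-Hochberg adjustment over 18085 genes, within 0.757% of each value. Genes without an adjusted p had mean counts of at most 2.99.

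No model was refitted, since the table gives no value per library, so depth per library is not known here, and the mean counts summed to 3.96e+07. Of the plans made for each kind of file, that for a table of results was followed. The deposited sign was turned because H2bc21 had a deposited value of 3.45. Intervals are 95% normal intervals. The implied WT level is 2 times the mean over 1 plus the fold change, and the KO level is that times the fold change, which assumes equal groups. Exon lengths and positions are from GENCODE M21 (GRCm38) for 26032 matched rows. Promoter windows are from RefSeq (GRCm38.p6), in which 7 of the 9 members matched, and Dlx5 and Dlx6 did not. Motifs searched included TAAT and TAATTA, both on either strand. The other motifs searched are not reported here.

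Members and lists were chosen with earlier results of these data known. Named genes are the members, the target, their tested overlapping genes and, in each of the 12 other lists, up to 4 called genes of smallest adjusted p, some of which are not reported here. Nkx2-1, Sst, Reln, Map2, Gad2, Pou3f3, Rgs5, Mbp, Sox10 and Pdgfra were named after their values were seen. The Benjamini-Hochberg adjustment, with the normal and the empirical null, was run on simulated data, with outcomes not reported here. The simulated null scales were below the 1.96 estimated from this table. The t distribution, Benjamini-Yekutieli adjustment, centring and trend removal were not simulated. Alternatives were other nulls, gene filters, adjustments, a centring and removal of a trend on exon length and GC. Python 3.11.15, numpy 2.4.6, pandas 2.3.3, scipy 1.17.1 and matplotlib 3.10.9 were used.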

Additional observations from a re-analysis of the deposited data

How the results depend on the processing

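Of the 7 alternatives 5 change only the p-values and leave each fold change as it is. Under the other 2, centring and trend removal, no factor changed sign. The 3 calls held under adjustment over every gene with a p, on genes of mean count 100 or more, after centring and after removal of a length and GC trend, with adjusted p from 5.45e-05 to 1.15e-04 for Lhx6, 0.00642 to 0.0312 for Sox6 and 0.0233 to 0.0485 for Dlx6, and none of the other 6 passed. With Benjamini-Yekutieli adjustment 1 factor passed, Lhx6, beside 26 of the 44 called genes of the related lists and 2077 of 3948 called genes in the table. With the t distribution (6 degrees of freedom) 0 factors, 0 related genes and 1 gene of the table passed, though 3 factors and 44 related genes had an unadjusted p under 0.05 by it. With an empirical null of scale 1.96, against 1 for the normal, 0 factors, 0 related genes and 74 genes of the table passed, with 1 factor (Lhx6) and 19 related genes at an unadjusted p under 0.05. The t distribution is wider than the normal by construction, whereas the scale of the empirical null was estimated from the statistics of this table, and the cause of its width was not tested. After trend removal Map2 (-0.0783) and Pou3f3 (-0.0163), neither of them called, changed sign, and Gad2 passed on genes of mean count 100 or more (adjusted p = 0.0493). No paired analysis was possible because the table gives no value per library, and for the same reason another normalization, a filter on counts, a count model and leaving out single libraries were not run.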

Other observations

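In the 250 bases before the RefSeq start nearest the GENCODE gene start, the 7 members with a RefSeq window differed in CpG content. For Dlx1 that start lies 1332 bases inside the GENCODE gene, so its window is within the gene as placed above. Sox6 had 6 RefSeq starts, Satb1 5, Lhx6 3 and Prox1 2, of which only the nearest was used. Dlx2 held 24 CpG dinucleotides, Dlx1 22, Prox1 20, Lhx6 14, Sox6 9, Satb1 5 and Nr2f2 1, against a median of 6 over 32851 windows. Lhx6 and Sox6, the called factors with a window, lie between the Dlx pair and Prox1 above and Satb1 and Nr2f2 below. TAAT was present in Sox6 and Nr2f2 among the 7.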
